A study of Mus musculus with 14 samples.

Results

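The cytochrome P450 family 2 genes, called Cyp2 here, were taken as every row of the liver count table whose symbol read Cyp2 followed by 1 letter and a number. This rule found 44 of the 25212 genes listed, and it used no measured value. All 44 matched protein-coding genes of the GENCODE M21 annotation on the mm10 (GRCm38) build, with 14 on chromosome 7, 14 on chromosome 19, 8 on chromosome 15, 6 on chromosome 4, and 1 each on chromosomes 3 and 5. Of these, 35 had a mean of at least 10 counts over the livers, and 36 passed the filter on low counts and were tested.

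The livers came from male C57BL/6 mice that were made obese on a high fat diet and stayed on it until collection, 8 weeks after surgery. Diet-induced obese controls without an operation (DIO, n = 5) were compared with obese mice whose gallbladder was joined to the ileum with the common bile duct tied off (GB-IL, n = 4) and with obese mice after Roux-en-Y gastric bypass (RYGB, n = 5). The DIO group was not sham operated, so an effect of surgery as such and an effect of the diversion cannot be told apart. The submitters name a poly(A) and a total RNA library kit but not which liver was made with which, and no value here bears on it. Each liver is 1 mouse and 1 library.

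Levels are given as CPM, the count of a gene scaled to a fixed library size after edgeR's TMM correction. Total counts ran from 18223135 to 28656631 per liver, the 4 Y-linked genes examined were at 2.48 CPM or more in every liver, and Xist did not exceed 0.297 CPM, as for male tissue. The 12 hepatocyte markers summed to 135200 to 206800 CPM over all livers. Single markers differed from this sum, such as Alb, Ttr and Hpx, chosen after their values were seen. In GB-IL livers 1 to 3, Alb was at 69890, 87460 and 57310 CPM and Ttr at 1607, 2186 and 3742 CPM. DIO livers had 91670 to 107900 CPM of Alb and 5696 to 9294 CPM of Ttr. Hpx was at 23040, 38220 and 26100 CPM in the same GB-IL livers and at 2596 to 5185 CPM in DIO livers. Several livers stood apart from the rest of their group in genes outside the family. The 17 acute-phase genes summed to 59550, 53000 and 91690 CPM in GB-IL livers 1 to 3, against 9098 CPM in GB-IL liver 4 and 9483 to 14810 CPM in DIO livers. The 8 pancreatic acinar genes summed to 1608 CPM in GB-IL liver 1 and to 6.89 to 38.8 CPM in the other livers. The 10 neutrophil genes summed to 111, 45.9 and 469 CPM in GB-IL livers 1 to 3 and 135 CPM in RYGB liver 5, against 2.75 to 8.26 CPM in the others. Counts of genes past the threshold in GB-IL are therefore given with and without GB-IL liver 4. This liver was chosen after the expression values were seen, so p values without it come from a selected subset. All values below are listed in the order of the replicate numbers.

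CYP2 enzymes are haem proteins of the endoplasmic reticulum that insert 1 atom of oxygen into drugs, steroids, fatty acids and arachidonic acid, with electrons passed on by the reductase POR. Most of the mouse genes lie in tandem clusters of close copies, and the liver is their main site. Their transcription depends on liver factors such as HNF4A, on the xenobiotic receptors CAR and PXR, and for some members on the sex-dependent pattern of growth hormone, and inflammation is known to lower many of them.

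Per kilobase of exonic length, Cyp2e1 made up 50.2% of the summed family level of DIO livers, with a mean of 3891 CPM per kb. Cyp2e1 encodes the ethanol-inducible enzyme of pericentral hepatocytes. It was followed by Cyp2d26 at 675, Cyp2d10 at 461, Cyp2f2 at 400, Cyp2d9 at 375, Cyp2j5 at 266, Cyp2a5 at 251 and Cyp2c29 at 247 CPM per kb. At the other end, 8 genes did not pass the filter and gave few reads. Cyp2d12, Cyp2j13, Cyp2t4 and Cyp2j8 had 122, 111, 70 and 36 counts over all 14 livers, and Cyp2b19, Cyp2c65, Cyp2j11 and Cyp2w1 had 6, 5, 5 and 1. The highest count of any of the 8 in 1 liver was 26, for Cyp2t4, so these genes were too low to be compared between groups. Cyp2d11 was tested with a mean of 9.07 counts.

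All 44 genes together took 1.30%, 1.79%, 1.73%, 1.72% and 1.80% of the total count in DIO livers 1 to 5. The share was 0.597%, 0.564%, 1.24% and 1.59% in GB-IL livers 1 to 4, and 1.88%, 1.30%, 1.54%, 1.67% and 0.632% in RYGB livers 1 to 5. GB-IL livers 1 and 2 and RYGB liver 5 lay lowest, and every other liver lay at or above 1.24%. Without Cyp2e1 the share was 0.686% to 0.922% in DIO livers, 0.351%, 0.450%, 0.447% and 0.791% in GB-IL livers, and 0.455% to 0.912% in RYGB livers. GB-IL liver 3 lay just under the DIO range with Cyp2e1 (1.24% against 1.30%) and further under it without (0.447% against 0.686%). No test was made on these sums. In whole liver, fewer cells of a type and less RNA per cell cannot be told apart.

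**Figure D1:**
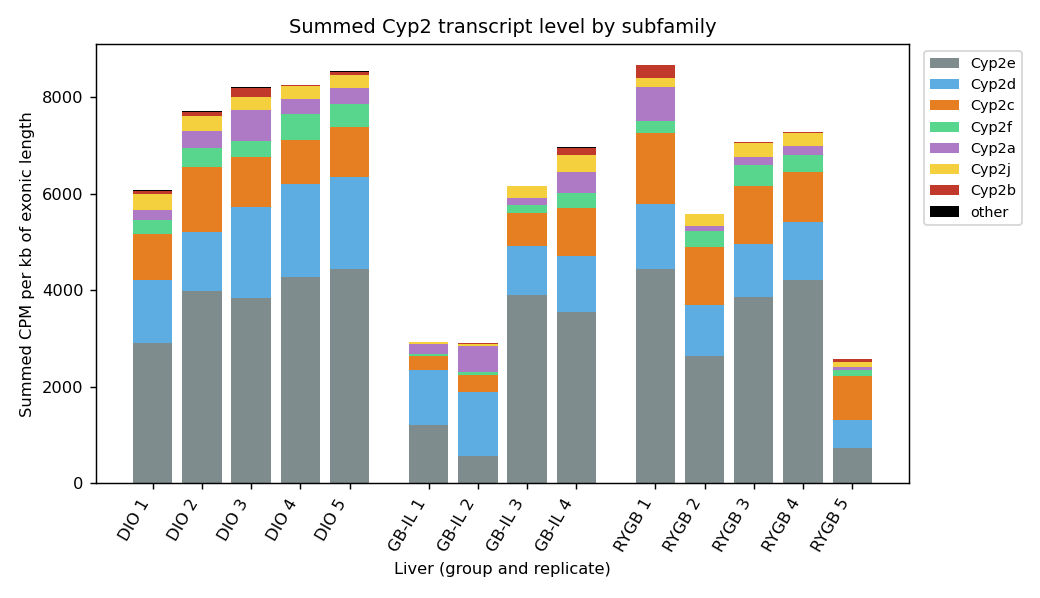
Summed Cyp2 transcript level in each liver, in CPM per kb of exonic length, stacked by subfamily; each bar is 1 liver. GB-IL livers 1 and 2 and RYGB liver 5 reached 2934, 2912 and 2572 CPM per kb, against 5585 to 8670 in the other 11 livers, and Cyp2e, the grey block, made up the largest part of most bars.

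The makeup of the family also differed between livers. Cyp2e1 gave 46.9% to 52.0% of the per-kilobase family level in DIO livers, but 41.6%, 19.7%, 63.5% and 51.1% in GB-IL livers 1 to 4. The 8 Cyp2d genes gave 16.1% to 23.3% in DIO livers, 16.3% to 45.4% in GB-IL livers and 15.5% to 23.3% in RYGB livers. The 14 Cyp2c genes gave 10.99% to 17.5% in DIO livers, 9.71% to 14.3% in GB-IL livers and 14.5% to 35.3% in RYGB livers, the last value being that of RYGB liver 5.

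The first question was whether bile diversion to the ileum changed the family. In edgeR's quasi-likelihood test over 14252 genes, none of the 36 Cyp2 genes tested passed a false discovery rate (FDR) of 0.05 in GB-IL against DIO, where 3.26% of all genes did (449 higher and 16 lower). At an unadjusted p below 0.05, 7 were lower, Cyp2c29, Cyp2c37, Cyp2c50, Cyp2c67, Cyp2d34, Cyp2d40 and Cyp2f2, against 6.43% of all genes, and 1 was higher, Cyp2a4, against 16.7% of all genes. The median log2 fold change of the 36 was -0.56, with 28 below 0 and 8 above, beside a median of 0.04 over all genes. DESeq2 called 4 Cyp2 genes (Cyp2c37, Cyp2d34, Cyp2d40 and Cyp2f2, all lower) where it called 8.07% of all genes. Of all genes it called 1164 higher and only 184 lower. Limma voom with sample quality weights called 4 (Cyp2c29, Cyp2c37, Cyp2d40 and Cyp2f2, all lower) where it called 4.13%, with 510 genes higher and 79 lower. The shares in both directions are thus mostly of higher genes.

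The result turned on GB-IL liver 4. Over all genes, 465 passed the FDR with all livers and 3572 without GB-IL liver 4. The number was 0, 0 and 576 without GB-IL livers 1, 2 and 3. It was also 0 without any 1 of the 5 DIO livers, and 294 to 482 without 1 of the RYGB livers. A fit of only the 2 groups compared gave 0, and a replicate block gave 1. Without GB-IL liver 4, the filter on low counts also passed Cyp2d12 and Cyp2j13, and 11 of 38 Cyp2 genes tested fell at the same FDR, beside 9.27% of all genes, and none rose, beside 15.4% of all genes. In that fit 1 gene, Cyp2a4, was higher at an unadjusted p below 0.05, and 7 of the 38 had a fold change above 0. The shares of 9.27% and 15.4% also apply to the gene lists counted below in that fit. The 11 were Cyp2c29, Cyp2c37, Cyp2c38, Cyp2c50, Cyp2c55, Cyp2c67, Cyp2d34, Cyp2d40, Cyp2f2, Cyp2j9 and Cyp2u1, and the median log2 fold change became -1.11. GB-IL liver 4 itself had 3 of the 36 genes below every DIO liver, beside 14.4% of all genes, whereas GB-IL livers 1, 2 and 3 had 27, 21 and 26 there, beside 37.5%, 35.9% and 18.3% of all genes. The acute-phase and neutrophil sums given above separate the same 3 GB-IL livers from GB-IL liver 4, and their part in the Cyp2 values was not tested.

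**Figure D2:**
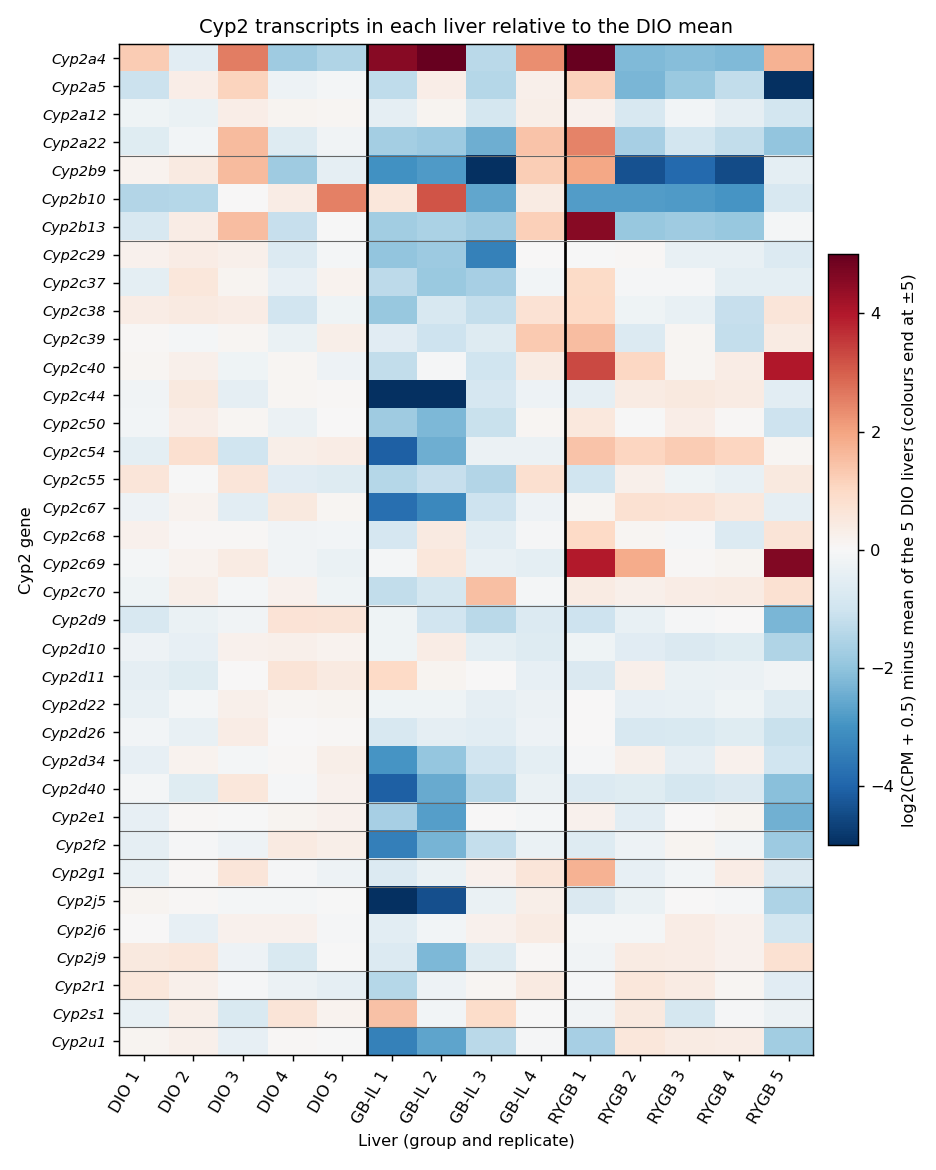
Level of each of the 36 Cyp2 genes tested in each of 14 livers, as log2(CPM + 0.5) minus the mean of the 5 DIO livers; blue is lower and red is higher, and colours end at 5 in both directions. GB-IL livers 1 to 3 had a median difference of -1.30, -0.998 and -0.91, GB-IL liver 4 of 0.00026, and RYGB liver 5 of -0.59.

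Cyp2e1 (chr7:140763739-140774987) differed between GB-IL livers more than between groups. Its level was 6263, 8589, 8308, 9246 and 9579 CPM in DIO, 2635, 1240.0, 8446 and 7675 CPM in GB-IL, and 9598, 5713, 8353, 9111 and 1565 CPM in RYGB. GB-IL livers 1 and 2 and RYGB livers 2 and 5 lay below every DIO liver. RYGB liver 1 lay just above the highest DIO liver, and the other operated livers lay within the DIO range. The log2 fold change in GB-IL against DIO was -0.75 ± 0.54 (SE), with an adjusted p of 0.392 in edgeR's test, and the groups overlapped. The other 12 pericentral markers measured, such as Glul (glutamine synthetase), summed to 4147 to 5886 CPM in DIO livers and 2293, 1815, 3175 and 4474 CPM in GB-IL livers. In RYGB livers 1 to 5 they summed to 6515, 3565, 5255, 4393 and 1944 CPM. None of these 12 passed the FDR in GB-IL against DIO, and 1 was lower at an unadjusted p below 0.05. Of the 12, 1 fell without GB-IL liver 4.

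Cyp2f2, which bioactivates naphthalene and marks periportal hepatocytes, was at 585, 760.2, 666, 1073 and 966 CPM in DIO, 73.3, 159, 342 and 626 CPM in GB-IL and 510.0, 666, 869.5, 698 and 223 CPM in RYGB. GB-IL livers 1 to 3 lay below every DIO liver and GB-IL liver 4 lay within their range. The log2 fold change in GB-IL against DIO was -1.43 ± 0.51, with an adjusted p of 0.126, and -2.09 ± 0.50 with an adjusted p of 0.01 without GB-IL liver 4, both by edgeR. The sum of the 11 other periportal markers did not share this order, at 8793 to 13780 CPM in DIO livers and 19670, 14470, 12390 and 10020 CPM in GB-IL livers. In RYGB livers 1 to 5 the sum was 9506, 8717, 13980, 12170 and 11300 CPM. Single markers could differ from the sum. Hsd17b6, chosen after its values were seen, was at 56.7 to 152 CPM in DIO livers and 4.99, 4.24, 101 and 142 CPM in GB-IL livers. None of the 11 passed the FDR and 3 were higher at an unadjusted p below 0.05, and 3 rose without GB-IL liver 4. Low Cyp2 levels in GB-IL livers 1 and 2 were thus seen in a pericentral and in a periportal gene.

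**Figure D3:**
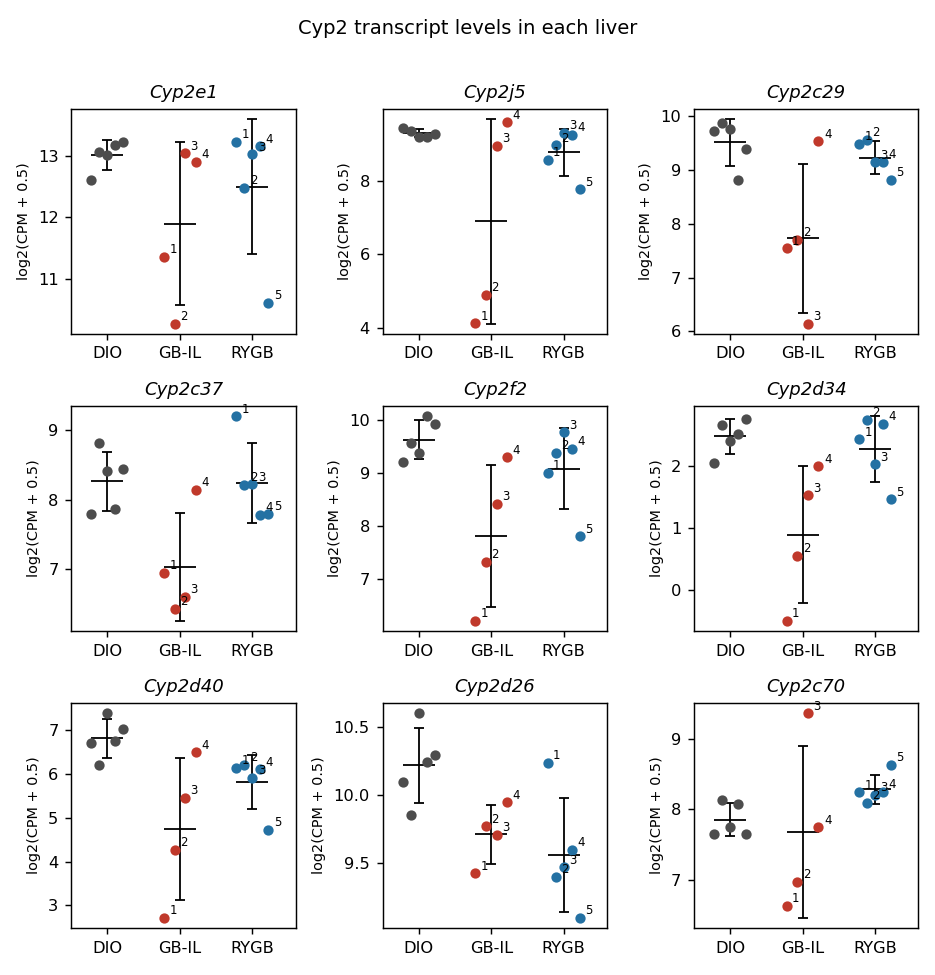
Levels of 9 Cyp2 genes as log2(CPM + 0.5) in DIO (n = 5), GB-IL (n = 4) and RYGB (n = 5); points are livers, numbers beside the points are the replicate numbers, and bars are the mean and SD. GB-IL livers 1 and 2 lay lowest for Cyp2j5 (16.9 and 29.3 CPM), and for Cyp2d34 all 4 GB-IL livers lay below the 5 DIO livers.

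Cyp2j5 encodes an arachidonic acid epoxygenase and split the GB-IL livers widely. It was at 688, 654, 582, 581 and 617 CPM in DIO, 16.9, 29.3, 495 and 769 CPM in GB-IL, and 379, 498, 628, 605 and 216 CPM in RYGB. The spread of the 4 GB-IL livers left a log2 fold change of -0.93 ± 0.78 and an adjusted p of 0.455 by edgeR. Cyp2c44, another epoxygenase of the liver and chosen here after its values were seen, was also low in GB-IL livers 1 and 2, at 213, 338, 179, 256 and 251 CPM in DIO against 7.197, 4.97, 133 and 204 CPM in GB-IL. Cyp2u1, also chosen after its values were seen, was at 9.89, 10.7, 6.72, 9.39 and 8.80 CPM in DIO, 0.42, 1.02, 3.27 and 8.63 CPM in GB-IL and 2.52, 13.4, 12.1, 11.9 and 2.32 CPM in RYGB.

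Cyp2c29 and Cyp2c37 are abundant epoxygenases of the chromosome 19 cluster. Cyp2c29 was at 849.9, 937, 865, 449 and 674 CPM in DIO, 186, 208, 70.3 and 740.0 CPM in GB-IL and 717, 757, 565, 568 and 452 CPM in RYGB. Cyp2c37 (chr19:39992424-40012243) was at 221, 449.9, 339.7, 233 and 346 CPM in DIO, 123, 85.2, 96.1 and 282 CPM in GB-IL and 589, 296, 298, 219.7 and 222 CPM in RYGB. In both genes GB-IL livers 1 to 3 were below every DIO and every RYGB liver and GB-IL liver 4 was inside the DIO range. The log2 fold changes in GB-IL against DIO were -1.33 ± 0.50 for Cyp2c29 and -1.12 ± 0.39 for Cyp2c37, with adjusted p of 0.138 and 0.119, and the FDR was passed by both without GB-IL liver 4, with adjusted p of 0.00123 and 0.00611, all by edgeR. Of the 12 members listed as arachidonate epoxygenases, a list chosen with earlier results known, none passed the FDR in GB-IL against DIO, 3 were lower at an unadjusted p below 0.05, and their median log2 fold change was -0.86. Of the 12, 6 fell without GB-IL liver 4, beside 9.27% of all genes, with a median of -1.65. Both epoxide hydrolases, which act on the products of such enzymes, were also lower at an unadjusted p below 0.05, with log2 fold changes of -1.005 ± 0.29 for Ephx2 (adjusted p of 0.0674) and -1.16 ± 0.44 for Ephx1 (adjusted p of 0.142), and both fell without GB-IL liver 4. In RYGB against DIO the values were -0.64 ± 0.27 for Ephx2 and -0.93 ± 0.40 for Ephx1, each with an adjusted p of 0.547 and an unadjusted p below 0.05.

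Cyp2d34 (chr15:82615965-82620946) had the smallest p of the family in GB-IL against DIO and was the 1 gene of the 36 whose GB-IL livers all lay below all DIO livers, where 1.51% of all genes did. It was at 3.61, 5.81, 4.73, 5.21 and 6.20 CPM in DIO, 0.21, 0.96, 2.38 and 3.47 CPM in GB-IL and 4.87, 6.17, 3.56, 5.87 and 2.25 CPM in RYGB. The gap between the highest GB-IL and the lowest DIO liver was small beside the spread in either group. The log2 fold change was -1.52 ± 0.52 with an adjusted p of 0.113 by edgeR. An exact two-sided permutation test on log2(CPM + 0.5), 1 of 108 such tests made, gave the smallest p the design allows, 0.00794. This p largely restates that the groups did not overlap. No Cyp2 gene had all GB-IL livers above all DIO livers, where 2.67% of all genes did.

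Cyp2d40 and Cyp2d26 lie in the same chromosome 15 cluster. Cyp2d40 was at 104, 72.7, 166, 107 and 129 CPM in DIO, 6.09, 18.9, 43.2 and 89.5 CPM in GB-IL and 70.0, 73.1, 59.9, 68.2 and 25.9 CPM in RYGB. GB-IL livers 1 to 3 and 4 of the 5 RYGB livers lay below every DIO liver. By edgeR, GB-IL differed from DIO by -1.55 ± 0.56 on the log2 scale (adjusted p of 0.126) and RYGB by -0.96 ± 0.51 (adjusted p of 0.612). Cyp2d26, the most abundant Cyp2d gene per kilobase in DIO livers, was at 1094, 926, 1555, 1214 and 1258 CPM in DIO, 689, 874, 836 and 987 CPM in GB-IL and 1209, 676, 709, 776 and 549 CPM in RYGB. GB-IL differed from DIO by -0.51 ± 0.25 on the log2 scale (adjusted p of 0.224) and RYGB by -0.63 ± 0.23 (adjusted p of 0.497).

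Cyp2c70 makes the muricholic acids, bile acids typical of mice, and is the member closest to bile acid metabolism. It was at 200, 279, 214, 268 and 201 CPM in DIO, 98.3, 125, 656 and 214 CPM in GB-IL and 302, 271, 294, 303 and 395 CPM in RYGB. Livers 1 and 2 of GB-IL were the lowest of the 14 and liver 3 was the highest, and the log2 fold change was 0.23 ± 0.42 with an adjusted p of 0.743. Without GB-IL liver 3 it was -0.67. In RYGB, 4 of 5 livers lay above every DIO liver, and the log2 fold change was 0.43 ± 0.40 with an adjusted p of 0.792. Cyp2r1, a hydroxylase of vitamin D, was at 14.7, 11.7, 9.26, 7.92 and 6.92 CPM in DIO, 3.36, 8.19, 10.5 and 13.5 CPM in GB-IL and 9.24, 14.8, 13.1, 10.6 and 6.51 CPM in RYGB, with overlapping groups.

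**Figure D4:**
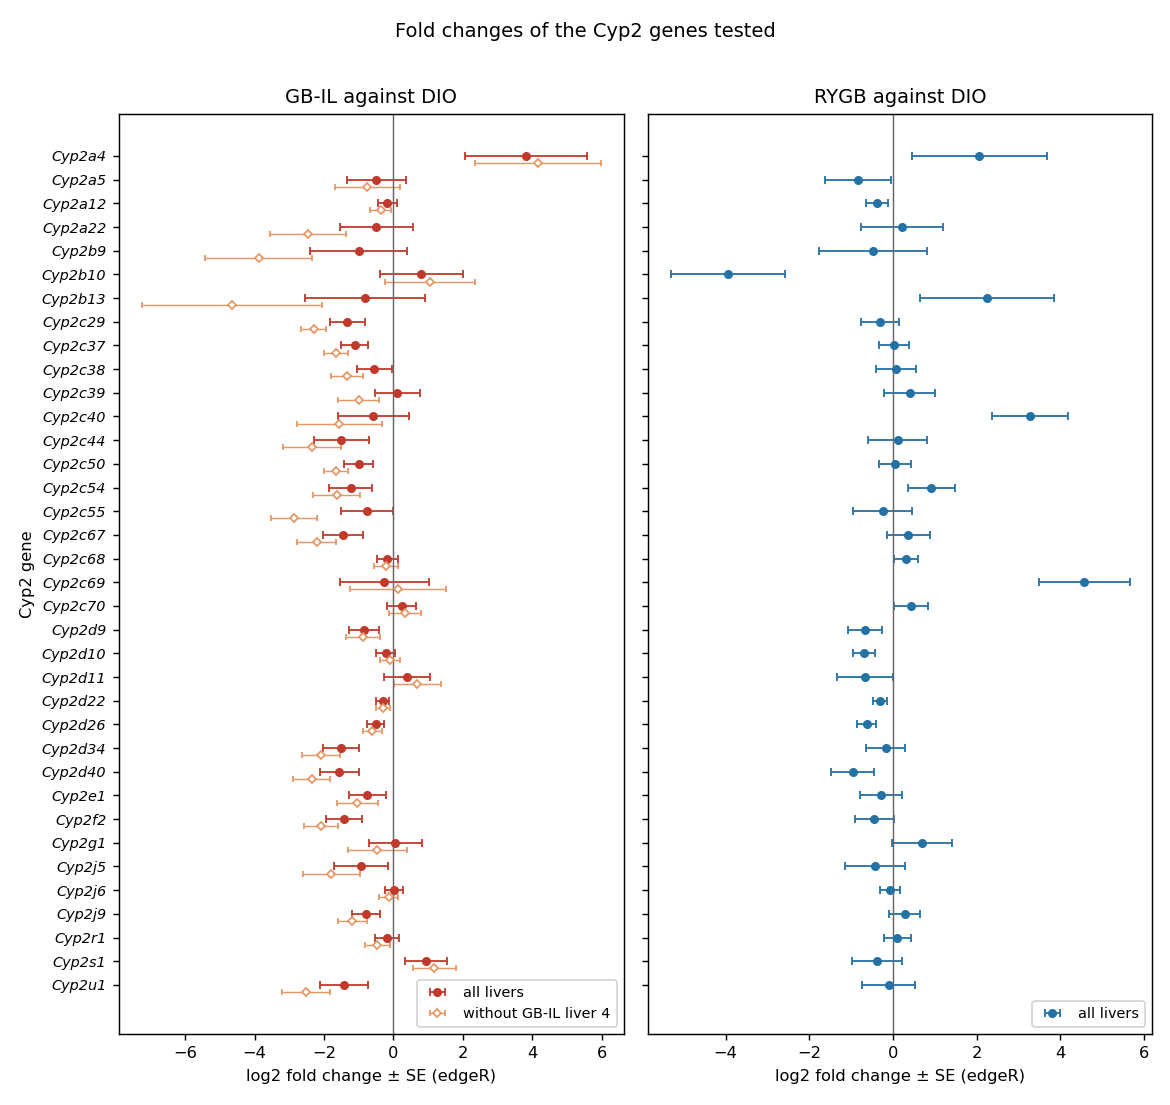
Log2 fold change ± SE (edgeR) of the 36 Cyp2 genes tested in GB-IL against DIO (left, red circles with all livers and open orange diamonds without GB-IL liver 4) and in RYGB against DIO (right, blue); both panels share the DIO livers, and the horizontal scales differ. The median was -0.56 in GB-IL and -0.09 in RYGB, and leaving out GB-IL liver 4 moved the GB-IL median to -1.11.

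After RYGB, 0 Cyp2 genes passed the FDR, as did 0% of all genes. At an unadjusted p below 0.05, Cyp2c40 and Cyp2c69 were higher, against 5.35% of all genes, and Cyp2b10, Cyp2d10 and Cyp2d26 were lower, against 3.36%. The median log2 fold change of the 36 was -0.09, with 19 below 0 and 17 above, beside 0.01 over all genes. No Cyp2 gene had all RYGB livers above all DIO livers or all below them, where 1.87% and 1.66% of all genes did. DESeq2 called 2 Cyp2 genes, Cyp2c40 and Cyp2c69, both higher, where it called 0.596% of all genes (60 higher and 34 lower). Limma voom with sample quality weights called 5, Cyp2b9, Cyp2b10, Cyp2d10, Cyp2d26 and Cyp2d40, all lower, where it called 11.9% (867 higher and 823 lower), so the genes called depended on the tool.

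The Cyp2 genes known for higher expression in female than in male mouse liver, Cyp2c40, Cyp2c69, Cyp2b9, Cyp2b13 and Cyp2a4, were examined together. Each has a close copy in the genome, and reads from the copies can be split or lost when they are counted. Of all 50-base stretches of their annotated transcripts, 60.3% for Cyp2c40, 54.3% for Cyp2c69, 38.0% for Cyp2a4, 27.3% for Cyp2b13 and 11.2% for Cyp2b9 were also found in a transcript of another gene. The starts of these genes are shown to let the closeness be seen. They are 300 bases from RefSeq on GRCm38.p6, 250 before the annotated start and 50 after it, read 5′ to 3′ along the gene. The first 4 lie side by side on the minus strand of the chromosome 19 cluster, and capitals mark bases that differ from Cyp2c69 in the aligned stretch. Cyp2c69 (chr19:39886720-39887019), Cyp2c40 (chr19:39812765-39813064), Cyp2c68 (chr19:39741052-39741351) and Cyp2c67 (chr19:39648993-39649292) read as follows.
Cyp2c69: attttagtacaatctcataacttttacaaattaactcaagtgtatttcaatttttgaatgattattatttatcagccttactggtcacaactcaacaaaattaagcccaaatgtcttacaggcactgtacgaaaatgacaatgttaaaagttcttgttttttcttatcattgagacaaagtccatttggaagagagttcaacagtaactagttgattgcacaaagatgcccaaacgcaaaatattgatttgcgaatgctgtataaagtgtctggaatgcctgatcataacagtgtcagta
Cyp2c40: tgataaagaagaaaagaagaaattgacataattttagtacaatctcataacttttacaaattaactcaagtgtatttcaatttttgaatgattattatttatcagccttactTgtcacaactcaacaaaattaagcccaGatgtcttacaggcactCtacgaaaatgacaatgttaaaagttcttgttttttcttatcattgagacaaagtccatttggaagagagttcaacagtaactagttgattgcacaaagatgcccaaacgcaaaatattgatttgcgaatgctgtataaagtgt
Cyp2c68: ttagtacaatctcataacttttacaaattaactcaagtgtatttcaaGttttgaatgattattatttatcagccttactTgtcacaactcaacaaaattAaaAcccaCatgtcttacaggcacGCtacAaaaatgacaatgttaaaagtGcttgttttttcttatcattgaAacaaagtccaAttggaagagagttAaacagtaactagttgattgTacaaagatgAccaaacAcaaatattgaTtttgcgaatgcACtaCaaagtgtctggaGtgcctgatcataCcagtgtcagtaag
Cyp2c67: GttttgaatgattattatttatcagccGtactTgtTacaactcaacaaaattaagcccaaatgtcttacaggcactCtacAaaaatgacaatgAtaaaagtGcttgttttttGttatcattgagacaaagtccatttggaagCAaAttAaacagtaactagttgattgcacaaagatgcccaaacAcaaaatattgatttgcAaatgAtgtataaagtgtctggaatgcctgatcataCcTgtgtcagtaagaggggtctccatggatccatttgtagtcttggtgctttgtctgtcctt
Cyp2c40 matched Cyp2c69 at 267 of 270 aligned positions (98.9%), while Cyp2c68 matched it at 277 of 299 (92.6%) and Cyp2c67 at 232 of 250 (92.8%).

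The second group lies on the plus strand of chromosome 7. Cyp2a4 (chr7:26306942-26307241) is shown with capitals at the 5 bases that differ from Cyp2a5 (chr7:26835089-26835388), and Cyp2b13 (chr7:26061245-26061544) with capitals at the 2 that differ from Cyp2b9 (chr7:26173159-26173458).
Cyp2a5: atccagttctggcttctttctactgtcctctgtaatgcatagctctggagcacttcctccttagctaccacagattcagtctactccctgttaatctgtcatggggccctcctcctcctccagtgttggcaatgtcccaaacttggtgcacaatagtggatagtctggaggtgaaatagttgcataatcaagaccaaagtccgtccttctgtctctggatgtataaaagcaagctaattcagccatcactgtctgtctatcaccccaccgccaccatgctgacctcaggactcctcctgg
Cyp2a4: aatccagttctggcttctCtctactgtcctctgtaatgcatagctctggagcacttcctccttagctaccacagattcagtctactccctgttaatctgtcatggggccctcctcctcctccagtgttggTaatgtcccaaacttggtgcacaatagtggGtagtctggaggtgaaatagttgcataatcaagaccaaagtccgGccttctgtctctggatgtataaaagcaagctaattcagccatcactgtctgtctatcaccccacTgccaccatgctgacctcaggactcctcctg
Cyp2b9: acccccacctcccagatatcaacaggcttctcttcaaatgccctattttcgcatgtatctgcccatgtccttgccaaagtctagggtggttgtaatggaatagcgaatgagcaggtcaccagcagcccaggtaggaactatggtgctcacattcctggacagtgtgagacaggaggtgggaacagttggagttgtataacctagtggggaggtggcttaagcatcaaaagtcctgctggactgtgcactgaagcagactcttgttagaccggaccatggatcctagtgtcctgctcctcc
Cyp2b13: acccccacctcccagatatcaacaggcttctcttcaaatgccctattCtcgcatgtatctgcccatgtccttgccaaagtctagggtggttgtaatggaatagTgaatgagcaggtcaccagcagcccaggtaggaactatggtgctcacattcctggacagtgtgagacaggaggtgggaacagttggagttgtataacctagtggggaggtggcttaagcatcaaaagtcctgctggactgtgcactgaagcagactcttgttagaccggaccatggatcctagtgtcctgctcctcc
The aligned stretches were 98.3% identical for Cyp2a4 and Cyp2a5 and 99.3% identical for Cyp2b13 and Cyp2b9. Among the 39 promoter windows of 37 Cyp2 genes in the RefSeq table, 51.3% held the TATA letters TATAAA on either strand, against 13.6% of 32544 windows of all genes. The letters CAAAGTCCA, a match to the HNF4 motif, stood in 15.4% of the Cyp2 windows against 0.479% of all, in Cyp2c40, Cyp2c65, Cyp2c67, Cyp2c68, Cyp2c69 and Cyp2c70. The letters TGTTTAC, from the FOX motif, stood in 10.3% of the Cyp2 windows (Cyp2c38, Cyp2c39 and Cyp2j5) against 3.66%, and TTCNNNGAA, from the STAT motif, in 2.56% (Cyp2j11) against 8.33%. Close copies share these letters by descent and are not independent cases.

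Cyp2c40 (chr19:39767071-39812814) and Cyp2c69 (chr19:39842814-39886799) were near the limit of detection in most livers and high in RYGB livers 1 and 5. Cyp2c40 was at 0.73, 0.89, 0.51, 0.74 and 0.48 CPM in DIO, 0, 0.62, 0.085 and 1.03 CPM in GB-IL and 10.9, 1.87, 0.74, 0.99 and 17.9 CPM in RYGB. Cyp2c69 was at 0.21, 0.34, 0.51, 0.17 and 0.096 CPM in DIO, 0.21, 0.62, 0.085 and 0.037 CPM in GB-IL and 11.3, 2.22, 0.28, 0.33 and 17.97 CPM in RYGB. RYGB livers 1 and 5 held 200 and 517 counts of Cyp2c40 and 207 and 519 of Cyp2c69, with at most 45 in any other liver. The log2 fold changes in RYGB against DIO were 3.27 ± 0.92 and 4.56 ± 1.09, with adjusted p of 0.374 and 0.331 by edgeR. The neighbours Cyp2c67 and Cyp2c68, chosen after their values were seen, were abundant in every group. In RYGB livers 1 and 5, Cyp2c68 was at 242 and 187 CPM, above its DIO range of 106 to 141 CPM, and Cyp2c67 was at 134 and 91.5 CPM, within its DIO range of 87.3 to 174 CPM.

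Cyp2b9 followed another order. It was at 139, 166, 364, 35.4 and 90.4 CPM in DIO, 14.7, 16.5, 1.40 and 285 CPM in GB-IL and 464, 5.47, 7.78, 5.09 and 87.3 CPM in RYGB. Against DIO, the log2 fold change was -1.0 ± 1.41 for GB-IL and -0.48 ± 1.30 for RYGB, with adjusted p of 0.665 and 0.937 by edgeR. Both surgical groups had 3 livers below every DIO liver, and 1 RYGB liver above them. Cyp2b13, chosen after its values were seen, was highest in the same liver, RYGB 1, at 42.4 CPM against 4.88 CPM or less elsewhere.

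Cyp2a5, which hydroxylates coumarin, was at 218, 576, 999.8, 387 and 425 CPM in DIO, 189, 574, 172 and 545 CPM in GB-IL and 1023, 94.9, 127, 198 and 13.5 CPM in RYGB. All groups overlapped. Its copy Cyp2a4, a steroid hydroxylase, was at 7.22, 1.72, 18.5, 0.45 and 0.62 CPM in DIO, 74.3, 234, 0.76 and 15.6 CPM in GB-IL and 109, 0.20, 0.25, 0.21 and 10.2 CPM in RYGB. Cyp2a4 was the 1 gene higher in GB-IL at an unadjusted p below 0.05, with a log2 fold change of 3.83 ± 1.75 and an adjusted p of 0.208 by edgeR, and this rested on GB-IL livers 1 and 2. Cyp2d9, the 1 member listed as male-biased, was at 532, 723, 807, 1486 and 1441 CPM in DIO, 798, 478, 358 and 576 CPM in GB-IL and 444, 722, 881, 926 and 188 CPM in RYGB. No female-biased or male-biased Cyp2 gene passed the FDR by edgeR with all livers in any comparison, and Cyp2c40 and Cyp2c69 were lower in GB-IL than in RYGB at that FDR without GB-IL liver 4.

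Genes with sex-biased expression outside the family also set single livers apart. Cux2, a repressor that is female-specific in mouse liver, was at 25.4 and 19.4 CPM in GB-IL livers 1 and 2, 25.1 and 27.0 CPM in RYGB livers 1 and 5, and at most 1.03 CPM in the other 10. Mup20, a male urinary protein chosen after its values were seen, was at 56.0, 42.4, 287 and 275 CPM in these 4 livers against 809 to 4591 CPM in the others. The 11 male-biased genes outside the family summed to 116, 138, 2200 and 6292 CPM in GB-IL livers and to 6918 to 14460 CPM in DIO livers. In RYGB livers they summed to 1755, 10700, 12500, 11160 and 1150 CPM. By edgeR, 1 of these 11 rose in GB-IL against DIO (Moxd1, which was at 36.4 CPM in GB-IL liver 3 and at most 0.21 CPM in the other GB-IL livers) and none fell, with 5 lower at an unadjusted p below 0.05. When GB-IL liver 4 was left out, 5 of the 11 fell, 1 rose and the median log2 fold change was -3.32. Of the 6 female-biased genes tested none passed and 2 were higher at an unadjusted p below 0.05, with a log2 fold change of 4.26 ± 1.53 and an adjusted p of 0.126 for Cux2. Of 7 tested without GB-IL liver 4, 2 rose and 1 fell. The part of these genes in the Cyp2 values was not tested.

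**Figure D5:**
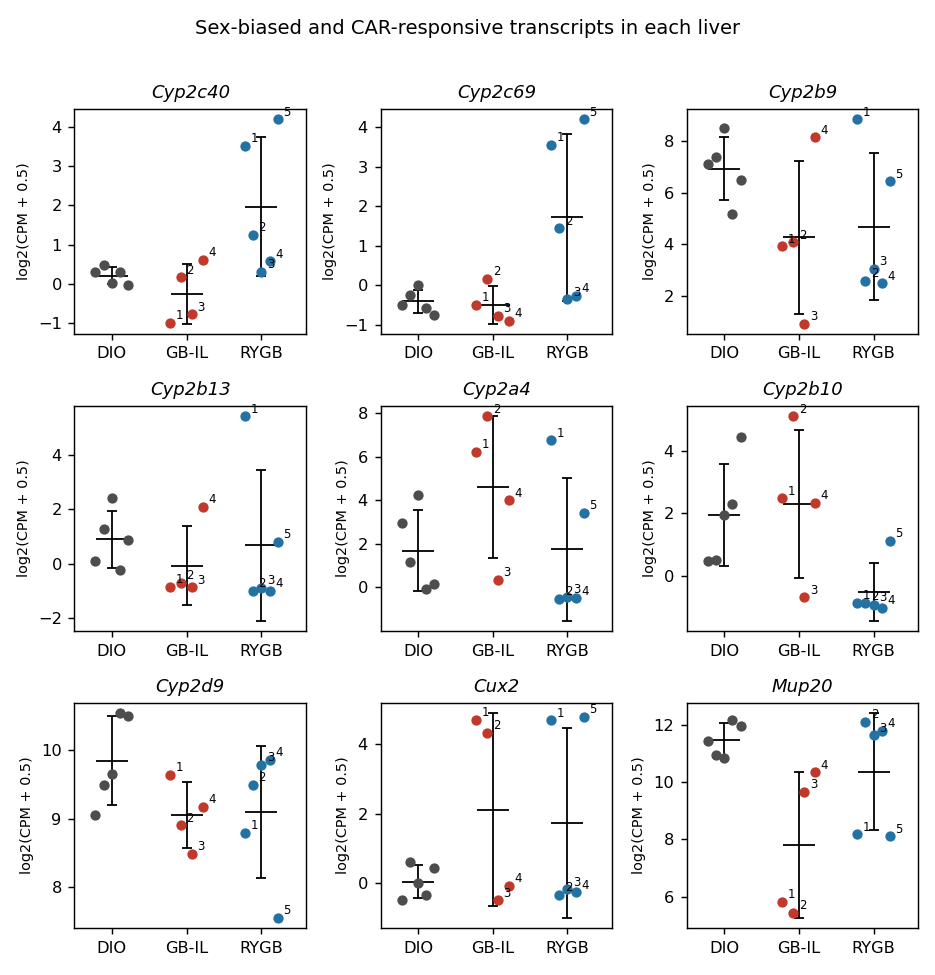
Levels of 7 Cyp2 genes and of Cux2 and Mup20 as log2(CPM + 0.5) in DIO (n = 5), GB-IL (n = 4) and RYGB (n = 5); points are livers with their replicate numbers, and bars are the mean and SD. Cyp2c40 and Cyp2c69 were high in RYGB livers 1 and 5, Cux2 was high in GB-IL livers 1 and 2 and RYGB livers 1 and 5, and Cyp2b10 was lowest in RYGB livers 1 to 4.

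Cyp2b10, the classical target of the xenobiotic receptor CAR, gave almost no reads in RYGB livers 1 to 4. It was at 0.89, 0.93, 3.36, 4.41 and 21.1 CPM in DIO, 5.09, 33.5, 0.13 and 4.57 CPM in GB-IL and 0.055, 0.049, 0.035, 0 and 1.70 CPM in RYGB. RYGB livers 1 to 4 had 1, 1, 1 and 0 reads, below every DIO liver, while RYGB liver 5 had 49. The log2 fold change in RYGB against DIO was -3.95 ± 1.37, with an adjusted p of 0.468 by edgeR. Of 14 other genes listed as CAR or PXR targets, none passed the FDR in either comparison with DIO. At an unadjusted p below 0.05, 1 was higher and 2 were lower in GB-IL and 0 differed in RYGB. Their median log2 fold change was -0.40 in RYGB and -0.39 in GB-IL. In GB-IL without liver 4, 1 rose and 3 fell, and the median was -0.79. The 2 with the smallest p in GB-IL were Slco1a4, a bile acid and drug carrier, at 2.01 ± 0.55 (adjusted p of 0.0586), and Ces2a, a carboxylesterase, at -1.11 ± 0.40 (adjusted p of 0.131). Cyp2c55, also inducible by xenobiotics, was at 2.20, 1.23, 2.19, 0.68 and 0.62 CPM in DIO, 0.16, 0.28, 0.13 and 2.58 CPM in GB-IL and 0.38, 1.58, 1.02, 0.87 and 1.94 CPM in RYGB.

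The surgical groups were then compared with each other. In GB-IL against RYGB, 0 Cyp2 genes passed the FDR, as did 0% of all genes. At an unadjusted p below 0.05, 8 were lower in GB-IL, against 6.77% of all genes, and 2 were higher, Cyp2b10 and Cyp2s1, against 15.3%. The 8 were Cyp2c37, Cyp2c40, Cyp2c50, Cyp2c54, Cyp2c67, Cyp2c69, Cyp2d34 and Cyp2j9, of which 6 lie in the chromosome 19 cluster. The median log2 fold change of the 36 was -0.52, with 26 below 0 and 10 above, beside 0.03 over all genes. The smallest p values belonged to Cyp2c69, at -4.83 ± 1.22 (adjusted p of 0.084), Cyp2c40, at -3.85 ± 1.04 (adjusted p of 0.0943), and Cyp2c54, at -2.15 ± 0.63 (adjusted p of 0.107). DESeq2 called 5 (Cyp2c40, Cyp2c54, Cyp2c67 and Cyp2c69 lower and Cyp2b10 higher) where it called 5.25% of all genes (689 higher and 188 lower). Limma voom called 1 (Cyp2c29, lower) where it called 0.807% (111 higher and 4 lower). Without GB-IL liver 4, 14 of 38 were called by edgeR, 13 lower and 1 higher, where 21.5% of all genes were (1948 higher and 1172 lower).

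Cyp2c54, an epoxygenase of the same cluster, was at 69.6, 171, 48.6, 121 and 125 CPM in DIO, 5.36, 17.4, 80.5 and 78.4 CPM in GB-IL and 259, 205, 235, 206 and 105 CPM in RYGB. It was the 1 Cyp2 gene whose GB-IL livers all lay below all RYGB livers, where 1.57% of all genes did. The exact two-sided permutation p was again the smallest possible, 0.00794, which largely restates the same separation. No Cyp2 gene had all GB-IL livers above all RYGB livers, where 1.27% of all genes did. The 2 comparisons with DIO share their control livers. For Cyp2c54 they gave log2 fold changes of -1.24 ± 0.61 in GB-IL and 0.91 ± 0.56 in RYGB, with adjusted p of 0.235 and 0.672 by edgeR.

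The family varied more from liver to liver than genes in general. Among genes with a mean of at least 10 counts, the median SD of log2(CPM + 0.5) of 35 Cyp2 genes was 0.37 in DIO, 1.09 in GB-IL and 0.62 in RYGB, beside 0.26, 0.51 and 0.27 over 13965 genes. Close copies and shared livers make these values dependent on each other, and no test was made.

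Cyp2c50 and Cyp2c67 of the chromosome 19 cluster were chosen after their values were seen. Cyp2c67 was at 105, 141, 87.3, 174 and 133 CPM in DIO, 8.67, 13.1, 61.2 and 104 CPM in GB-IL and 134, 213, 207, 178 and 91.5 CPM in RYGB, and GB-IL differed from DIO by -1.46 ± 0.57 on the log2 scale (adjusted p of 0.152). Cyp2c50 was at 436, 611, 517, 392.5 and 497 CPM in DIO, 143, 103, 222 and 516 CPM in GB-IL and 702, 479.6, 614, 502 and 236 CPM in RYGB, with a difference of -0.997 ± 0.41 (adjusted p of 0.174). In both, GB-IL livers 1 to 3 lay below every DIO liver, and both fell without GB-IL liver 4, with adjusted p of 0.0123 and 0.00533 by edgeR.

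The genes not yet given were the following. Cyp2a12 had means of 394 ± 72.6 (SD), 350 ± 123 and 304 ± 101 CPM in DIO, GB-IL and RYGB, Cyp2d22 of 288, 232 and 232 CPM, and Cyp2j6 of 69.4, 70.6 and 66.4 CPM, and in each of them the log2 fold changes against DIO lay between -0.38 and 0.02. Cyp2c38 was lower in GB-IL livers 1 to 3, at 19.0 to 41.2 CPM, than in GB-IL liver 4, at 119 CPM. Cyp2a22 and Cyp2c39 were highest in RYGB liver 1, at 61.0 and 7.38 CPM. Cyp2g1, Cyp2s1 and Cyp2d11 stayed at or under 3.01 CPM in every liver. Cyp2d10 was at 624, 558, 874, 900.3 and 844 CPM in DIO, 637, 958, 533 and 473 CPM in GB-IL and 645, 501, 455, 493 and 262 CPM in RYGB, and 4 of the 5 RYGB livers lay below every DIO liver.

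The partners and regulators of the family were examined in the same fit. Of 9 electron-transfer and haem genes, 1 rose in GB-IL against DIO, the haem oxygenase Hmox1, with a log2 fold change of 1.76 ± 0.44 and an adjusted p of 0.0437 by edgeR, and the second smallest p was that of Fdxr, a mitochondrial reductase, at 1.32 ± 0.48 (adjusted p of 0.128). Without GB-IL liver 4, 2 of the 9 rose and 2 fell. Por, the reductase that serves all microsomal P450 enzymes, was at 169, 401, 578, 969 and 877 CPM in DIO, 1935, 1404, 695 and 284 CPM in GB-IL and 570.2, 190.5, 167, 162 and 424 CPM in RYGB. The 2 GB-IL livers with the lowest Cyp2 share thus had the most Por, and the log2 fold change was 0.85 ± 0.58 with an adjusted p of 0.364. None of 26 listed regulators passed the FDR in either comparison with DIO. In GB-IL, 9 of them were lower and 1, Cux2, was higher at an unadjusted p below 0.05, and the 26 had a median log2 fold change of -0.36. Without GB-IL liver 4, 9 fell and 2 rose, and the median was -0.63. Foxa1, a liver transcription factor, was among the 9 lower at an unadjusted p below 0.05 with all livers. Its log2 fold change in that fit was -0.99 ± 0.31 (adjusted p of 0.0927 by edgeR). Nr1i3, which encodes CAR, was at 213, 376, 515, 367 and 431 CPM in DIO, 175, 339.7, 183 and 336 CPM in GB-IL and 564, 193, 191, 247 and 181 CPM in RYGB, and differed by -0.56 ± 0.37 on the log2 scale between GB-IL and DIO (adjusted p of 0.356).

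P450 genes of other families were examined beside the Cyp2 genes. Of 31 tested, 3 rose in GB-IL against DIO, the smallest p values being those of Cyp1b1, at 2.28 ± 0.46 (adjusted p of 0.0278), and Cyp4f16, at 2.18 ± 0.45 (adjusted p of 0.0287), and the third was Cyp4f18. None fell, 5 were lower at an unadjusted p below 0.05, and the median log2 fold change was -0.13, beside -0.56 for the Cyp2 genes. Without GB-IL liver 4, 5 rose, beside 15.4% of all genes, and 5 fell, beside 9.27% of all genes. The median in that fit was -0.30, beside -1.11 for the Cyp2 genes. The difference between these medians was not tested. Of marker lists for other cell types in GB-IL against DIO, 10 of 17 acute-phase genes, 5 of 13 macrophage genes, 4 of 6 neutrophil genes tested, 2 of 7 cholangiocyte genes, 1 of 10 stellate cell genes, 1 of 2 acinar genes and 2 of 12 hepatocyte genes rose, and none fell; none of 9 lymphocyte, 8 endothelial and 3 intestinal genes tested passed, with 1 of these higher at an unadjusted p below 0.05, and the 7 kidney genes were too low to be tested. Without GB-IL liver 4, the counts that rose were 12 acute-phase, 6 macrophage, 6 neutrophil, 3 cholangiocyte, 3 stellate cell, 1 acinar, 6 hepatocyte, 1 lymphocyte, 0 endothelial and 1 intestinal gene, and 3 hepatocyte, 1 cholangiocyte, 1 stellate cell and 1 intestinal gene fell. Over all genes, 15.4% rose and 9.27% fell in that fit. In RYGB against DIO none of these lists had a gene past the FDR with all livers. Apoa4, an intestinal gene that the liver also expresses, gave 4315 of the 4395 CPM of the 10-gene intestinal list in RYGB liver 5. There the enterocyte genes Sis and Alpi and the intestinal factor Cdx2 were at 0 CPM, and Muc2, a mucin of goblet cells, was at 3.32 CPM, against at most 0.578 CPM in the other livers. The part of these cell types in the Cyp2 values was not tested.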

How the data were processed

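RNA-seq of liver from 14 mice was deposited as 1 table of whole-number counts per gene, with no normalization by the authors. Per the submitters' processing notes the reads were aligned with TopHat 2 and counted with HTSeq. The notes list the mm10 and hg19 builds, and the mouse build was taken to be mm10. Other versions, the gene annotation and the strandedness of counting were not given in the sources used here. Per the labels, the library kits were stranded. The study's methods describe amplification before library preparation, which can add spread between livers.

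All 25212 genes and 14 livers entered 1 fit in edgeR 4.0.16 (R 4.3.3). Genes were filtered with filterByExpr, which left 14252, and libraries were scaled by TMM. The 3 comparisons were made with the quasi-likelihood F test, with Benjamini-Hochberg adjustment over all genes tested and an FDR of 0.05. SEs were taken as the log2 fold change divided by the square root of F. Other p-values are from exact two-sided permutation tests on log2(CPM + 0.5), 108 in all and not adjusted. The replicates are numbered as separate mice, and the total counts above set the precision of low genes. Alternatives were limma 3.58.1 voom with sample quality weights, DESeq2 1.42.0, RLE and upper-quartile scaling, a fit of only the groups compared, no filter on low counts, a filter at a mean of 50 counts, a replicate block, and each liver left out. The fit was tested on simulated data. Lengths and positions are from GENCODE M21 and promoter windows from RefSeq, and figures were drawn with matplotlib 3.10.9.

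Values in every liver are given for the 3 genes with the smallest p in each comparison, the most abundant gene per length of each subfamily, and Cyp2c70, Cyp2e1, Cyp2f2, Cyp2b10, Cyp2c55 and Cyp2r1, which came to 17 genes, and for others where the text says that they were chosen after their values were seen, among them Cyp2a4, Cyp2d9 and Cyp2d10. Outside the family, 253 of 257 listed genes were found. The family and the lists were chosen with earlier results of these data known. Some of the listed genes are not reported here.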

Additional observations from a re-analysis of the deposited data

Results flagged for a closer look

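The following values lay far from the rest of their group, by Dixon's test at the 95% level in groups of 4 or 5 livers. Of 57 groups tested 11 were marked, where chance alone marks about 1 in 20 if values are normal and independent. The values tested were not log-transformed and came from the same livers, so an excess over chance cannot be judged. Cyp2a5 was at 1023 CPM in RYGB liver 1, with the other RYGB livers at 13.5 to 197 CPM. Cyp2b9 was at 464 CPM in the same liver against 5.09 to 87.3 CPM, and Cyp2c37 at 589 CPM against 219.7 to 298 CPM. RYGB liver 5 stood apart for Cyp2b10, at 1.70 CPM against 0 to 0.055 CPM, for Cyp2c70, at 395 CPM against 271 to 303 CPM, and for Cyp2d40, at 25.9 CPM against 59.9 to 73.1 CPM.

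In the GB-IL group, liver 4 stood apart for Cyp2b9, at 285 CPM against 1.40 to 16.5 CPM, and for Cyp2c55, at 2.58 CPM against 0.13 to 0.28 CPM. Cyp2b10 was at 33.5 CPM in GB-IL liver 2 against 0.13 to 5.09 CPM, and at 21.1 CPM in DIO liver 5 against 0.89 to 4.41 CPM. In DIO liver 1 the whole family took 1.30% of the total count, against 1.72% to 1.80% in the other DIO livers.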

How the results depend on the processing

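The number of Cyp2 genes past the FDR was 0 in all 3 comparisons in edgeR and stayed 0 under RLE and upper-quartile scaling, without the filter, with a mean of at least 50 counts, in a fit of only the groups compared and with a replicate block. DESeq2 called 4 in GB-IL against DIO, 2 in RYGB against DIO and 5 in GB-IL against RYGB, and voom with sample quality weights called 4, 5 and 1. Leaving out each liver gave 0 to 11, 0 to 0 and 0 to 14, with the highest counts without GB-IL liver 4. The median log2 fold change ran from -1.11 to -0.39 in GB-IL against DIO, -0.36 to 0.058 in RYGB against DIO and -1.38 to -0.29 in GB-IL against RYGB when livers were left out. With the replicate block it was -0.34 in RYGB against DIO. The deviations of same-numbered livers from their group means correlated at -0.38 to 0.38 over 13 pairs. Livers with different numbers were not compared in this way, so these values cannot decide whether the numbers pair the livers.

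Of 1117 values of the named genes under these alternatives, 1059 kept their direction and side of the threshold, 34 newly passed it and 24 changed sign, all for fold changes of 0.81 or less in size. Under voom, the log2 fold changes that changed sign were Cyp2b10 (-3.03) and Cyp2r1 (0.23) in GB-IL against DIO, Cyp2c37 (-0.073) and Cyp2c55 (0.18) in RYGB against DIO, and Cyp2c70 (0.23) in GB-IL against RYGB. With the replicate block they were Cyp2c70 in GB-IL against DIO (-0.067) and Cyp2c37 in RYGB against DIO (-0.032). With livers left out, the ranges that crossed 0 in GB-IL against DIO were -0.92 to 2.18 for Cyp2b10, -1.33 to 0.13 for Cyp2c69, -0.67 to 0.49 for Cyp2c70 and -0.46 to 0.079 for Cyp2r1. In RYGB against DIO they were -2.58 to 0.069 for Cyp2b9, -0.30 to 0.19 for Cyp2c37, -0.30 to 0.010 for Cyp2d34 and -0.030 to 0.28 for Cyp2r1. In GB-IL against RYGB they were -3.40 to 1.58 for Cyp2b9, -1.10 to 0.061 for Cyp2c70 and -0.0054 to 0.32 for Cyp2d26. The cause was not tested. Depth limits the genes with few reads, such as Cyp2c69, with 10 reads or fewer in 10 of 14 livers, and Cyp2b10, in 5.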
